A study of Mus musculus with 6 samples.

Results

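Claudins and their partner proteins of the tight junction were examined in the acid-secreting part of the mouse stomach, with and without the gene Lasp1. The set held 9 genes chosen by name as parts of the gastric barrier, with earlier results of these data known. They included the claudins Cldn18, Cldn2, Cldn3, Cldn4, Cldn7 and Cldn23. The others were the occludin gene Ocln, the junctional adhesion molecule gene F11r and the scaffold gene Tjp1. All 9 were among the 19057 named genes of the array and were read by 10 of its 45281 probes, 2 for Cldn2 and 1 for each other gene. A filter on dim probes kept 9 of these probes and 8 of the genes, all but Cldn4. Total RNA came from the fundic gastric mucosa of mice of the C57Bl/6Ncr strain at 3 months of age. Wild type mucosa and Lasp1 knockout mucosa were each measured on 3 Illumina bead arrays. How the Lasp1 gene was disrupted, and whether each array held a separate mouse, was not stated in the labels. The p-values therefore measure the spread between these arrays, which may be technical, and their small number limits the precision of every comparison.

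Tight junctions seal the space between neighbouring epithelial cells near their apical surface. Claudins are small membrane proteins that pass the membrane several times and form the strands of the junction, and the mix of claudins sets which ions can pass between cells. Occludin and junctional adhesion molecules lie beside them, and scaffold proteins such as ZO-1, the product of Tjp1, tie them to the actin cytoskeleton. In the stomach this seal has to hold back acid from the lumen, and Cldn18 is the claudin most closely tied to that tissue.

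Cldn18 is transcribed from more than 1 start, and the upstream start is known for the lung form of the protein and the downstream start for the stomach form. Which of these transcripts its single probe reads is not given in the sources used here. The 250 bases before both starts are shown with those of Cldn2 and F11r, because Cldn18 was the claudin of the stomach, Cldn2 varied most between arrays among the members, and F11r stands for the members with many CpG dinucleotides before the start. They are from RefSeq, GRCm38.p6, 5′ to 3′ on the strand of the gene. Capitals mark TATAAA (the TATA box), CAGGTG (an E-box bound by Snail-type repressors) and GGGCGG (the GC box of Sp1), each searched on both strands with no overlapping matches in these windows.
Cldn18 upstream start, chr9:99717268-99717517, minus strand: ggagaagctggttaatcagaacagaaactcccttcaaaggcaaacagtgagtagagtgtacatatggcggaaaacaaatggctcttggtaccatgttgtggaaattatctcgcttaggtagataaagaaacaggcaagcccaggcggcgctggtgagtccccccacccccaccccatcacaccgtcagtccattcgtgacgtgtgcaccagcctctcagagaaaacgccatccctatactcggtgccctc
Cldn18 downstream start, chr9:99710064-99710313, minus strand: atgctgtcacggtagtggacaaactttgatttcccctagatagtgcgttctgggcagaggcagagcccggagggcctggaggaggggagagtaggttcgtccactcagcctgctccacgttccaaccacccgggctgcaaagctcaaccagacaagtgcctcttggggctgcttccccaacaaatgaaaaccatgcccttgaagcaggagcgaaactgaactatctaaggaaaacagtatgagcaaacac
Cldn2, chrX:139800558-139800807, plus strand: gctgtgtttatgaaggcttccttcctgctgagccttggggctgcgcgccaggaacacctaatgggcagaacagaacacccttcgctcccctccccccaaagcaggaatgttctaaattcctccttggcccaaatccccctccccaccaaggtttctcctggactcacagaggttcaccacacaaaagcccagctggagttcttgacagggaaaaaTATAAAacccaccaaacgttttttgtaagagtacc
F11r, chr1:171437311-171437560, plus strand: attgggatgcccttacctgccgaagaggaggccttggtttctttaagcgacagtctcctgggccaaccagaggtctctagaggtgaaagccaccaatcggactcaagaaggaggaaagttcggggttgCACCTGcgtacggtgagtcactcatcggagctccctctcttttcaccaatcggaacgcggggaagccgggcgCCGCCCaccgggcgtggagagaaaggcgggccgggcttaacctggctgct

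Neither Cldn18 window held any of the 3 motifs, and their starts lay 7204 bases apart. The Cldn2 window held TATAAA 35 bases before the start, as 12.4% of all 32851 windows of this length held it somewhere, and only 4 CpG dinucleotides against a median of 6 over all windows. The F11r window held 17 CpG, a CAGGTG on the reverse strand 122 bases before the start and a GGGCGG on the reverse strand 50 bases before it. CAGGTG was found in 17.2% and GGGCGG in 32.7% of all windows. The Tjp1 window held 22 CpG and 2 GGGCGG, and both Ocln windows held GGGCGG, with 14 and 22 CpG. Windows with fewer CpG held GGGCGG too: those of Cldn3 (9 CpG) and Cldn4 (7 CpG) and 1 of 2 Cldn7 windows (10 CpG). CAGGTG was also present in 1 of 2 Ocln windows, 1 of 2 Cldn7 windows and the Cldn4 window. Windows were found for 8 of the 9 genes, all but Cldn23. Cldn3 and Cldn4 are neighbours that are read in opposite directions, with 39280 bases between their starts. These matches describe the letters upstream and say nothing about factor binding in these samples.

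The values are linear intensities that the authors had scaled to a median of 1000 on each array, without background subtraction. The brightest probe of a Y-linked gene was taken as the background of an array (1020 to 1212), since all samples read as female by these probes, and 35.8% to 48.5% of probes lay above it. Lasp1 itself, on its brightest probe, read 270957, 275068 and 177315 on wild type arrays 1 to 3 and 88521, 111002 and 89823 on knockout arrays 1 to 3, a log2 difference of -1.30 (SE 0.21, limma adjusted p = 0.994) in the direction of the labels. Signal remained in the knockout, and the place of the probe relative to the deletion is not known here. Parietal cell genes went with the tissue label: all 8 were above background on every array, with Atp4a, the proton pump subunit, between 438485 and 539091. Of 5 chief cell genes 4 were above background on every array, and Lipf (711 to 871) on none. Gast, a gene of the neighbouring antrum, ranged from 861 to 43741 over the arrays. The parietal genes do not show that only fundus was sampled. Transcripts of other tissues differed by array. The summed level of 12 measured pancreatic acinar genes was 6860783 on wild type array 3, 1110885 on knockout array 3 and 722048 to 851537 on the other arrays. That sum includes Clps, named after its values were seen, which read 513831 to 635559 over all 6 arrays. The marker Cpa1 read 449183 on wild type array 3, 6865 on knockout array 3 and 814 to 993 on the others. The summed level of 14 squamous epithelium genes was 448814 on wild type array 2, 773457 on knockout array 1 and 20030 to 31608 on the others. The summed level of 8 smooth muscle genes was 254221 on knockout array 1 and 39856 to 111944 on the others, with the lowest on wild type array 3. Tested probes were the 22640 whose mean lay above that of the median probe. In bulk RNA, fewer cells of a type and less RNA per cell cannot be told apart.

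No member passed the test for a genotype difference. Cldn18, Cldn23, F11r and Tjp1 read higher on each knockout array than on any wild type array, with log2 differences of 0.24 to 0.60. So did 6.17% of all tested probes. Cldn2 and Ocln had positive log2 differences with overlapping groups, Cldn3 and Cldn7 negative ones with overlapping groups, and Cldn4 was too dim to be tested. By limma, 0 of the 9 tested member probes had an adjusted p under 0.05, over a background of 0.00883% of all tested probes. Also 0 had an unadjusted p under 0.05, where 1.63% of all probes passed as higher and 0.106% as lower.

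**Figure D1:**
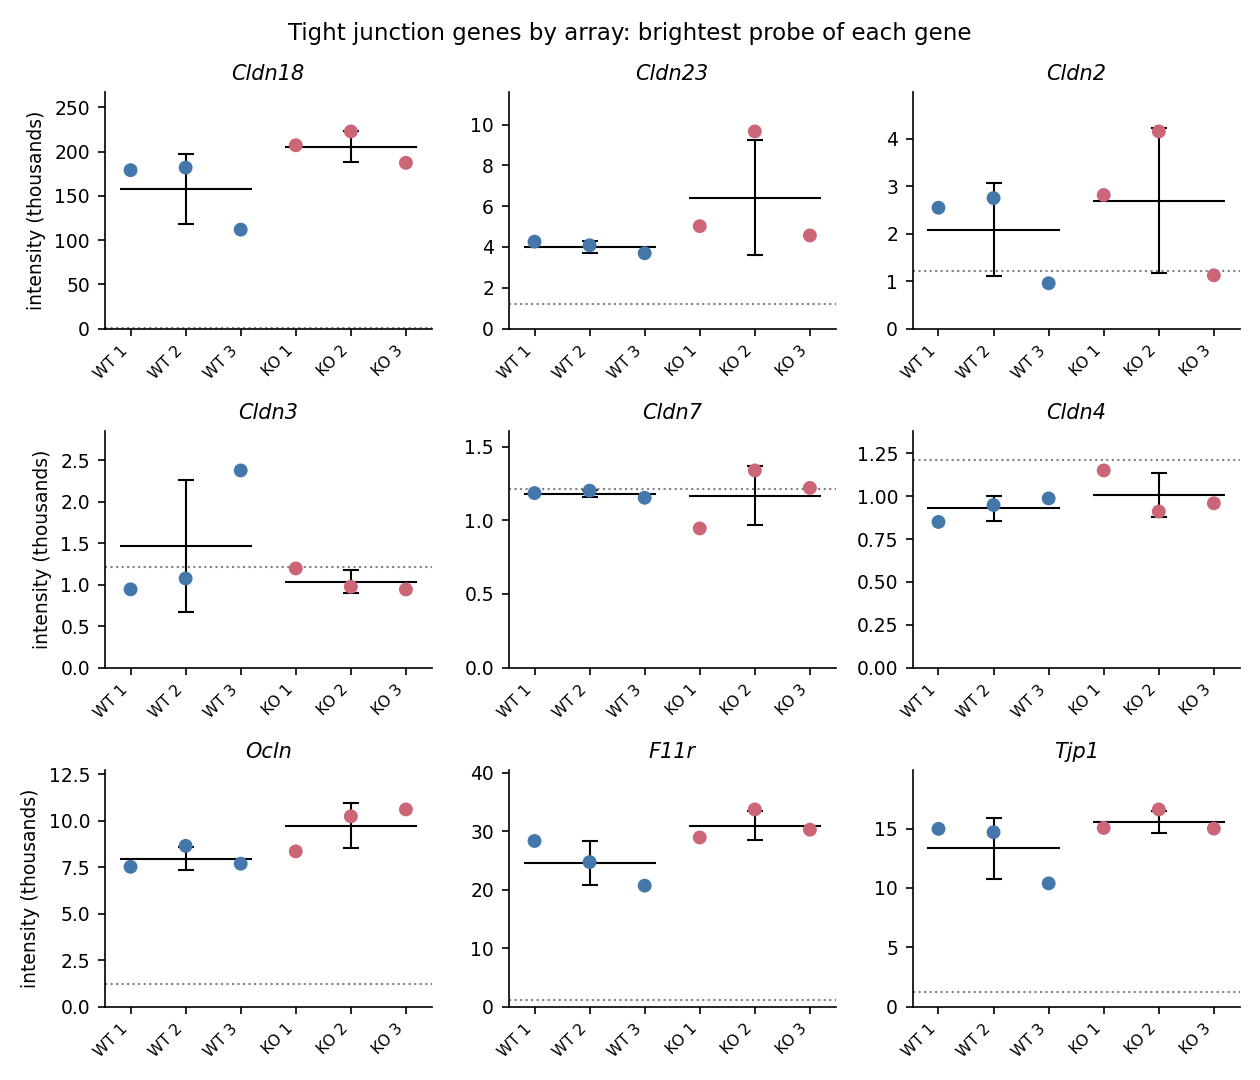
Intensity divided by 1000 (linear axis from 0) of the brightest probe of each gene on the 3 wild type (WT, blue) and 3 knockout (KO, red) arrays. Points are arrays, horizontal lines group means and bars the SD (n = 3), and the dotted line is the highest background of any array (1212). Cldn18, Ocln, F11r, Tjp1 and Cldn23 lie far above the dotted line, while Cldn4 and Cldn7 lie near it.

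Cldn18, the claudin of gastric epithelium, was bright on all 6 arrays. It read 179084, 181979 and 111848 on wild type arrays 1 to 3 and 207207, 222867 and 187363 on knockout arrays 1 to 3. The groups did not overlap, with a narrow gap between wild type array 2 and knockout array 3, and wild type array 3 stood well below the rest. The group means were 157637 ± 39681 and 205812 ± 17793 (SD, n = 3 each). Knockout exceeded wild type by 0.42 on the log2 scale (SE 0.21, 95% interval -0.08 to 0.92), or 1.33-fold. The limma adjusted p was 0.994. A permutation test of Cldn18 alone, exact and two-sided, gave p = 0.1, and no smaller value can be reached with this design. Without wild type array 3, which carried the most pancreatic transcripts, the Cldn18 difference was 0.19, and after quantile normalization it was 0.31 with the groups still apart.

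Cldn23, a claudin of gastrointestinal epithelium, read 4260, 4084 and 3696 in wild type mucosa and 5022, 9665 and 4565 in knockout mucosa. The groups did not overlap, but knockout array 2 stood far above the other 5 arrays and the gap between the groups was small. Means were 4013 ± 289 and 6418 ± 2822 (SD, n = 3 each), with a log2 difference of 0.60 (SE 0.28, interval -0.08 to 1.27, limma adjusted p = 0.994). The Cldn23 difference was 0.26 without knockout array 2, and the groups overlapped after quantile normalization (0.43).

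Cldn2 forms a channel for cations and water between cells, so that it makes a junction leakier. Its brighter probe read 2548, 2752 and 956 in wild type mucosa and 2817, 4158 and 1123 in knockout mucosa. It was at background on array 3 of both genotypes and clearly above it on the other 4 arrays, so that its highest array was 4.35 times its lowest. The second probe followed the same order of high and low arrays, with 2120, 2662 and 868 in wild type and 2187, 3474 and 907 in knockout mucosa. The log2 differences of 0.32 (SE 0.58, interval -1.04 to 1.69) and 0.16 (SE 0.58) were well within the spread between arrays (limma adjusted p = 0.994 for both), and the brighter probe gave -0.17 without wild type array 3 and -0.08 without knockout array 2. With the replicate number as a block, the difference of the brighter probe had an SE of 0.14 (limma adjusted p = 0.863). Both Cldn2 probes read higher on the knockout array of each replicate number than on the wild type array of that number. Whether these numbers pair the samples is not known. Gast, the gene of gastrin, whose cells lie in the antrum next to the fundus, was also lowest on array 3 of both genotypes, at 1354 in the wild type and 861 in the knockout. It read 43741 and 35100 on wild type arrays 1 and 2 and 5003 and 21207 on knockout arrays 1 and 2, and Cldn2 was not low on knockout array 1 (2817), where Gast was. Cftr, a chloride channel gene, read 1053 and 1378 on array 3 of wild type and knockout and 1749 to 4328 on the others, with its highest value on knockout array 2, as for Cldn2. Gast and Cftr were picked here after their values were seen, and their part in the Cldn2 values was not tested.

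Cldn3 and Cldn4, barrier claudins that serve as receptors of a clostridial enterotoxin, were at or near background in this mucosa. Cldn3 read 943, 1074 and 2376 in wild type mucosa and 1195, 974 and 942 in knockout mucosa. Only wild type array 3 and knockout array 1 exceeded their background, the latter slightly. The log2 difference was -0.38 (SE 0.34, interval -1.19 to 0.44, limma adjusted p = 0.994), and it was 0.04 without wild type array 3 and 0.10 without both arrays with pancreatic transcripts. All 12 pancreatic acinar genes were above background on wild type array 3, and also on knockout array 3, where Cldn3 read 942. The part of those transcripts in the Cldn3 values was not tested. Cldn4 read 850, 949 and 987 in wild type and 1151, 911 and 959 in knockout mucosa and exceeded the background on knockout array 1 alone. It did not pass the filter on dim probes. With no filter its log2 difference was 0.11 (SE 0.12, interval -0.16 to 0.39, limma adjusted p = 0.999). Cldn7, a claudin found along the lateral membrane of many epithelia, read 1184, 1201 and 1153 in wild type and 945, 1338 and 1220 in knockout mucosa. It stayed within a narrow band around background, and its difference of -0.03 (SE 0.15, interval -0.40 to 0.34) had a limma adjusted p of 0.994 and was 0.12 without knockout array 1, which carried the most squamous and smooth muscle transcripts. Their part in it was not tested. Low readings of these 3 probes do not show that the transcripts were absent.

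The transmembrane partners and the scaffold were all well above background. Ocln, the gene of occludin, read 7517, 8644 and 7686 in wild type mucosa and 8347, 10231 and 10603 in knockout mucosa. Only knockout array 1 fell within the wild type range, and the spread of Ocln was the smallest of the 5 bright members, 1.41 from lowest to highest array. Its log2 difference was 0.29 (SE 0.14, interval -0.05 to 0.62, limma adjusted p = 0.994) as deposited and 0.11 after quantile normalization. F11r encodes JAM-A, an immunoglobulin-type adhesion molecule of the junction. It read 28346, 24741 and 20703 in wild type and 28954, 33752 and 30290 in knockout mucosa, so the groups did not overlap but nearly met. The F11r difference was 0.34 (SE 0.15, interval -0.02 to 0.70, limma adjusted p = 0.994). It was 0.22 without wild type array 3, and 0.16 after quantile normalization with overlapping groups. Tjp1, the ZO-1 scaffold that binds claudins and actin, read 14974, 14691 and 10380 in wild type and 15052, 16612 and 14995 in knockout mucosa. Wild type arrays 1 and 2 were almost level with knockout arrays 1 and 3, and wild type array 3 was far below. The Tjp1 difference of 0.24 (SE 0.17, interval -0.17 to 0.64, limma adjusted p = 0.994) was 0.07 without wild type array 3 and 0.06 after quantile normalization.

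**Figure D2:**
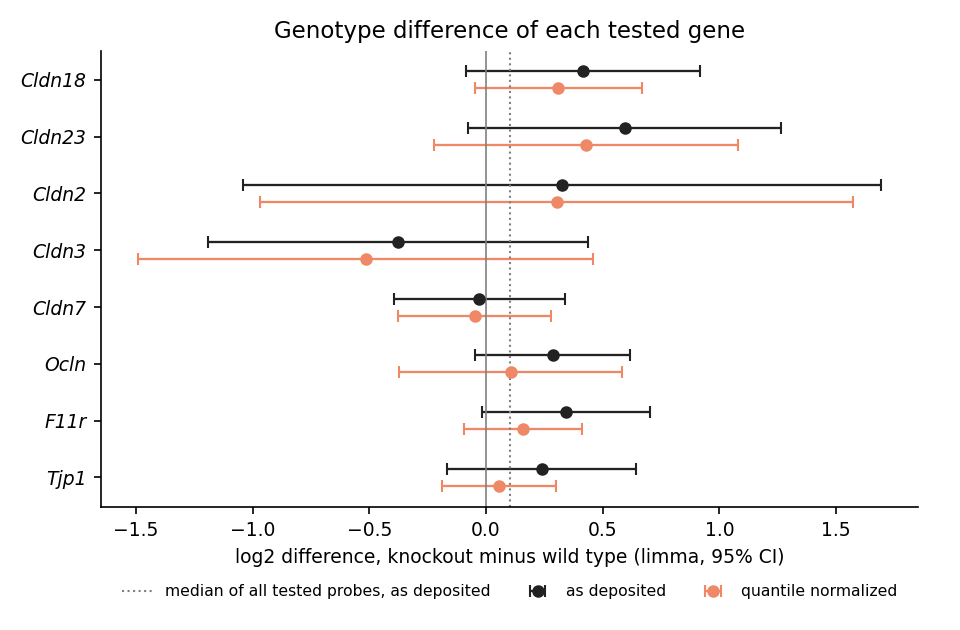
Log2 difference, knockout minus wild type, for the brightest probe of the 8 tested genes, with 95% intervals from limma (n = 3 arrays each). Black points use the deposited values and orange points quantile normalized values, and the dotted line is the median of all tested probes as deposited (0.10). Each black and orange interval includes 0, and the intervals of Cldn2 and Cldn3 are the widest.

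Over the 8 tested genes the median log2 difference was 0.31, with 6 positive and 2 negative, while over all tested probes the median was 0.10 and 76.9% were positive. Over the brighter 11320 probes the median was 0.17 and 88.5% were positive. The 5 members among those were all positive, with a median of 0.34. After quantile normalization the medians of the 8 genes and of all tested probes were 0.13 and 0.0029, with 6 of 8 genes and 50.9% of probes positive. Of the 8 genes, 4 had knockout arrays entirely above wild type arrays, against 6.17% of all tested probes and 7.08% of the brighter 11320 probes. The reverse held for 0 of the 8, against 1.02% of probes. After quantile normalization knockout lay above wild type on every array for 1 gene, Cldn18, against 3.01% of probes, and below for 0, against 3.36%. There too 0 member probes passed the adjusted threshold, and 0 had an unadjusted p under 0.05, against 0.945% of probes as higher and 0.742% as lower. After cyclic loess normalization the groups were apart for 0 of the 8 genes, where 3.14% of probes were apart as higher and 3.26% as lower. Without wild type array 3 the median over the genes was 0.13 and that over all probes -0.0039. Median differences and counts of the list describe the same 6 arrays and carry no test. The list was chosen with earlier results of these data known.

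Across arrays, wild type array 3 was the lowest array for 5 of the 8 tested genes, Cldn18, Cldn2, Cldn23, F11r and Tjp1, and the highest for Cldn3. It was the lowest for 64.9% of all tested probes, so the count of 5 is near that background. Knockout array 2 was the highest for 6 of 8, namely Cldn18, Cldn2, Cldn23, Cldn7, F11r and Tjp1, where it was the highest for 21.4% of all tested probes. After quantile normalization wild type array 3 was the lowest for 2 of the 8 genes and knockout array 2 the highest for 6. The shares of all tested probes after this normalization were not counted, so these counts cannot be set against a background. The median of the 8 genes on knockout array 2, each centred on its own mean over the arrays, was 0.26 log2 as deposited and 0.18 after quantile normalization, against 0.05 and 0.01 over all tested probes. On wild type array 3 it was -0.41 as deposited and 0.0019 after quantile normalization, with -0.27 for all probes as deposited. Arrays are also numbered 1 to 6 in their titles, with no meaning stated. Within arrays numbered 1 to 3 the median difference of the 8 genes was 0.11 and within those numbered 4 to 6 it was 0.62, where all probes had 0.04 and 0.29. Cldn18 differed by 0.20 and 0.87 within these sets, Cldn23 by 0.27 and 0.85, and Tjp1 by 0.02 and 0.60. Within each set 1 genotype had a single array, which for the set 4 to 6 was wild type array 3.

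The claudin family beyond the members mostly read near background on these arrays. Of 20 other claudins listed, 15 had a probe, and 8 of those were not above background on any array, among them Cldn5, the endothelial claudin (778 to 952). Of the 6 that were tested, 0 passed by limma at an adjusted p under 0.05 and 0 at an unadjusted p under 0.05, against 1.63% of all probes as higher and 0.106% as lower. Their differences were positive for 4, with a median log2 difference of 0.10, against 76.9% positive and a median of 0.10 over all tested probes. The median of these 6 claudins was -0.015 after quantile normalization and -0.25 without knockout array 1. Cldn12, a claudin without the usual scaffold-binding tail, read between 13770 and 21611, with a difference of 0.17 (SE 0.19) that was -0.0023 without wild type array 3. Cldn15, a cation channel of the intestine, read 2255, 2126 and 1746 in wild type and 1586, 1609 and 1852 in knockout mucosa (log2 difference -0.27, SE 0.14), with overlapping groups. After quantile normalization Cldn15 lay lower on every knockout array than on any wild type array, as did 3.36% of all probes (-0.37, limma unadjusted p = 0.0154, adjusted p = 0.999875). Without wild type array 3 the groups were apart in the same way (-0.38, limma unadjusted p = 0.0202), as were those of 5.0% of all probes. Separation is easier to reach with fewer arrays. Over the alternatives in which Cldn15 was tested, its limma adjusted p ran from 0.039 with array weights up to 0.999991. Cldn9 read 1405 to 1545 in wild type and 1559 to 1637 in knockout mucosa, 0.10 log2 apart (SE 0.11). As deposited it was the only 1 of the 6 with separate groups, against 6.17% of all tested probes as higher.

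A few claudins were high on the arrays that carried transcripts of another tissue. Cldn10, which forms ion channels in secretory and renal epithelia, read 28491 on wild type array 3 and 1324 to 1745 on the other 5 arrays with its brightest probe. Its log2 difference was -1.34 (SE 1.11), and 0.11 without that array, and its 3 other tested probes differed by -0.81, -0.56 and 0.12. On the same array Cpa1, a pancreatic carboxypeptidase, read 449183. Cldn1, a claudin of skin and other squamous epithelia, read 1438 on wild type array 2 and 1938 on knockout array 1 and 882 to 1070 elsewhere. Cldn17 had the same 2 high arrays, with 1602 and 2644 there and 894 to 1110 elsewhere. Those arrays also carried Lor, the cornified envelope protein, at 274920 and 399114, and 10 and 12 of the 14 squamous genes were above background there, against 2 to 6 on the other arrays. Cldn1 and Cldn17 differed between genotypes by 0.09 (SE 0.33) and 0.15 (SE 0.44). Cldn1, Cldn5 and Cldn17 were named after their values were seen, and the part of the other tissues in the values of Cldn1, Cldn10 and Cldn17 was not tested.

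**Figure D3:**
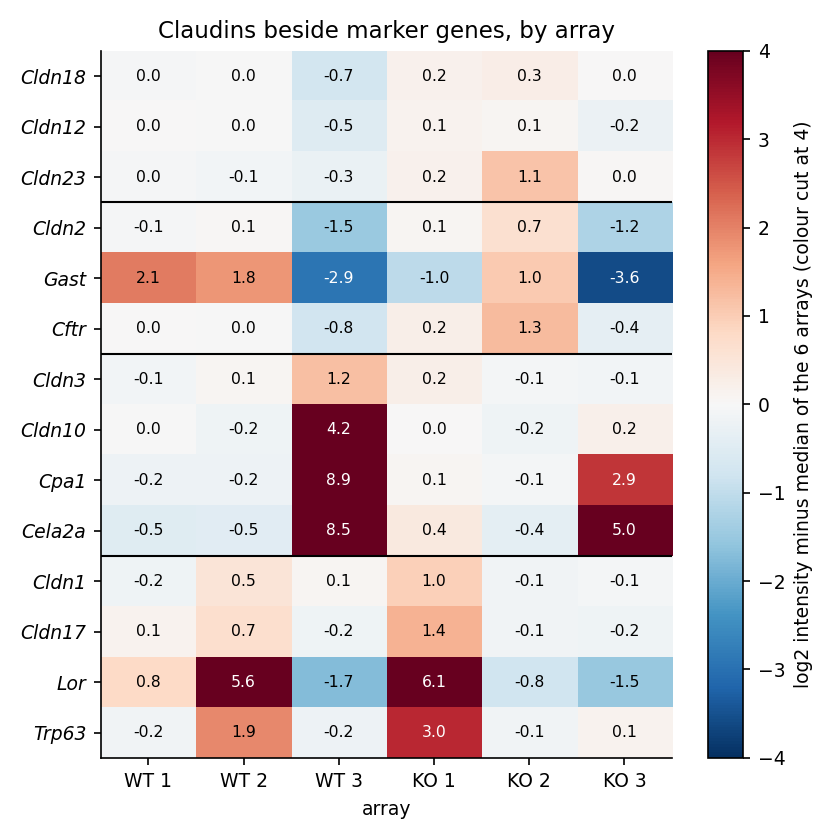
Log2 intensity of each gene minus its median over the 6 arrays (rows genes, columns arrays, printed in each cell; colours end at 4), for the brightest probe. The blocks hold Cldn18, Cldn12 and Cldn23, Cldn2 with Gast and Cftr, Cldn3 and Cldn10 with pancreatic genes, and Cldn1 and Cldn17 with squamous genes. Cldn10 is raised on WT 3 alone, where Cpa1 and Cela2a are highest, and Cldn1 and Cldn17 on WT 2 and KO 1, where Lor and Trp63 are.

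Other junction genes were read from 3 lists. By limma, 0 of their tested genes passed at an adjusted p under 0.05, and 0 had an unadjusted p under 0.05. Of all tested probes, 1.63% passed the unadjusted threshold as higher and 0.106% as lower. Of 28 tested genes of the tight junction outside the claudin family and the members, 22 had positive and 6 negative log2 differences, with a median of 0.12. After quantile normalization 16 were positive, with a median of 0.04. Of all tested probes 76.9% were positive with a median of 0.10, and 50.9% with a median of 0.0029 after quantile normalization. The counts of this list are near that background. Without wild type array 3 there were 15 positive and 13 negative, with a median of 0.01, and without knockout array 1 the median was 0.06. Over all probes these medians were -0.0039, with 48.9% positive, and 0.07. The smallest p-values belonged to Tjp3, the ZO-3 scaffold (log2 difference 0.50, SE 0.30), Sympk, whose product symplekin also acts in mRNA processing (0.20, SE 0.12), Crb3, a Crumbs polarity protein (0.19, SE 0.12), and Ybx3, a transcription factor that binds ZO-1 (0.32, SE 0.20). Crb3 read 1303 to 1520 in wild type and 1536 to 1680 in knockout mucosa with separate groups, and the other 3 overlapped. It was the only 1 of the 28 with knockout above wild type on every array, against 6.17% of all tested probes. Without wild type array 3 the Tjp3 difference was 0.22 and that of Ybx3 0.16.

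Adherens junction genes, which hold neighbouring cells together just below the tight junction, had positive log2 differences in 13 of 13 tested genes, with a median of 0.28 and a range of 0.15 to 0.46. Of all tested probes 76.9% were positive, with a median of 0.10. Among the brighter 11320 probes 88.5% were positive, with a median of 0.17. These held 12 of the 13 genes, all positive, with a median of 0.28. After quantile normalization 11 of 13 genes were positive with a median of 0.12, against 50.9% of probes and a median of 0.0029. Without wild type array 3 the median of the adherens junction genes was 0.10 and that of all probes -0.0039. Nectin2, an immunoglobulin-type adhesion molecule, read 23162, 23450 and 18495 in wild type and 26088, 32850 and 24308 in knockout mucosa (0.35, SE 0.17). Ctnnd1, the p120 catenin that stabilises cadherins, read 12355, 10997 and 6498 in wild type and 12916, 14271 and 12487 in knockout mucosa (0.46, SE 0.24). Knockout lay above wild type on every array for 3 of the 13, Nectin2, Ctnnd1 and Ctnna1, against 6.17% of all tested probes. After quantile normalization this held for 1 of the 13, against 3.01%. Nectin3 (0.39, SE 0.23) and Vcl, the vinculin gene (0.29, SE 0.17), overlapped. Without wild type array 3 the differences were 0.18 for Ctnnd1, 0.19 for Nectin3 and 0.13 for Vcl. Of 7 tested desmosome genes 6 were positive, with a median of 0.24, where 76.9% of all tested probes were positive. The 6 desmosome genes among the brighter 11320 probes were all positive, with a median of 0.28, where 88.5% of those probes were. Pkp2, a plakophilin (0.32, SE 0.16), had separate groups, the only 1 of the 7, against 6.17% of all tested probes. Evpl, the envoplakin gene (0.45, SE 0.36), Dsg2, a desmosomal cadherin (0.24, SE 0.21), and Pkp4 (0.17, SE 0.19) overlapped. The desmosome median was 0.08 after quantile normalization and -0.0032 without wild type array 3. Without that array Evpl differed by 0.07, Dsg2 by 0.02 and Pkp4 by -0.0032.

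**Figure D4:**
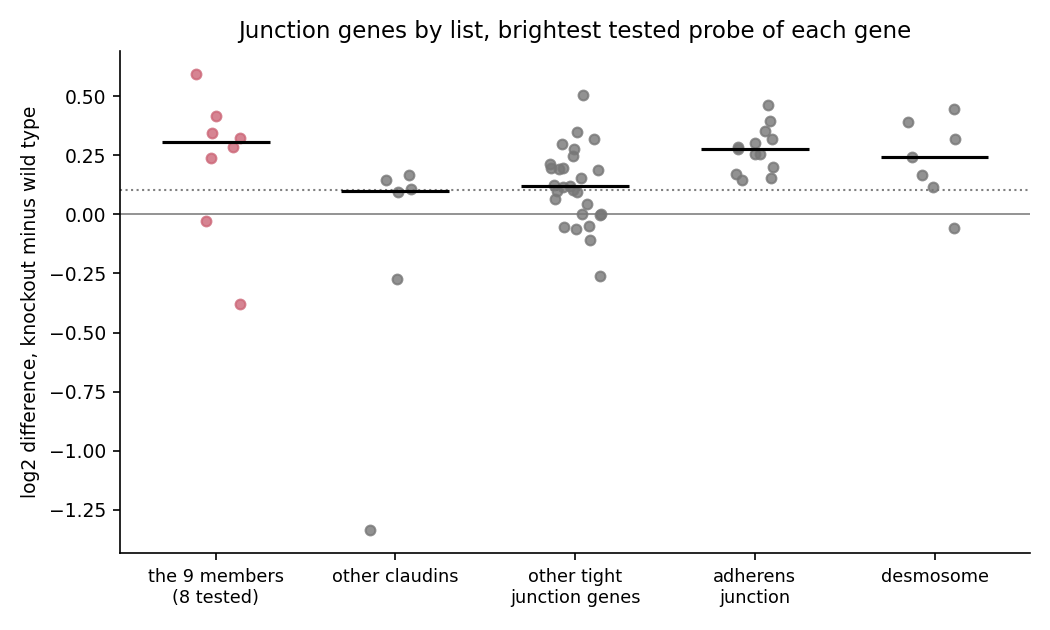
Log2 difference, knockout minus wild type, as deposited, for the brightest tested probe of each gene (points), with the median of each list (black line) and of all tested probes (dotted line, 0.10). Members are red (8 tested), and the grey points are 6 other claudins, 28 other tight junction genes, 13 adherens junction genes and 7 desmosome genes. The lowest grey point is Cldn10 at -1.34.

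The profile of Cldn18 over the 6 arrays was compared with those of 11867 other named genes by Pearson's correlation of log2 values. The most alike were Rflnb (0.998), Ctnna1, the alpha-catenin of the adherens junction (0.997), Efl1 (0.996), Cert1 (0.996) and 2310022A10Rik (0.995). All 5 shared the low value of Cldn18 on wild type array 3, and 11.8% of all genes compared had a correlation over 0.9 with it. After quantile normalization Ctnna1 (0.977) and Rflnb (0.909) remained close, while Efl1 (0.748), Cert1 (0.417) and 2310022A10Rik (-0.430) did not. Ctnna1 read 238978, 236686 and 189816 in wild type and 251659, 265405 and 243326 in knockout mucosa. Among the members, Tjp1 (0.982) and F11r (0.910) were most like Cldn18 as deposited, and after quantile normalization these values were 0.371 and 0.316. Cldn2 gave 0.770 as deposited and 0.741 after quantile normalization, where it was the member most like Cldn18. Cldn3, at background on most arrays, ran opposite to Cldn18, with -0.883 and -0.890. The pair of Tjp1 and F11r gave 0.913 as deposited and 0.731 after quantile normalization, and the pair of Cldn2 probes 0.990 and 0.991. The points of these correlations are 6 arrays that share scale and tissue mix, and no test was made.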

How the data were processed

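Total RNA of 3 wild type and 3 Lasp1 knockout mucosa samples had been labelled with biotin for Illumina arrays, per the labels' protocols. The authors deposited linear intensities scaled to a median of 1000 per array, as the values themselves show (lowest 541.9, so background was not subtracted). For scanner, software and build, the sources used here give nothing.

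Probes were named from the platform annotation through gene identifiers (34885 of 45281 had 1 symbol). Intensities were floored at 16 and log2 transformed. The 22640 probes above the median probe in mean log2 were fitted by genotype in R 4.3.3 with limma 3.58.1 (functions lmFit and eBayes). Tests were two-sided, and calls needed a p under 0.05 after Benjamini-Hochberg adjustment over all of these probes. A gene is given by its brightest probe, and differences are knockout minus wild type. The procedure was also run on simulated data with independent noise. Those lacked the shared differences between arrays seen here, so that run does not bear on them.

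Members and lists were chosen with earlier results of these data known. Named genes were all members, the 4 genes of smallest p of each junction list, the 5 genes most like Cldn18 and, from the cell type lists, defining markers, besides those stated as picked after seeing values. The main fit did not pair samples by replicate number, and whether the numbers mark pairs is not known. Alternatives covered normalization, background (normexp, offset 50), filters, floor, variance model, array weights, blocks and arrays left out. Figures were drawn with matplotlib 3.10.9.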

Additional observations from a re-analysis of the deposited data

How the results depend on the processing

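No member passed under any alternative but array weights, where 1 member probe did (F11r, log2 0.37, adjusted p = 0.0364), in a fit that called 1816 probes in all, with 3 of the other tight junction genes and 1 other claudin. With no filter 0 passed, and F11r and Ocln had unadjusted limma p-values of 0.0375 and 0.0469. In that fit 1190 of all 45281 probes had an unadjusted limma p under 0.05. Over the alternatives the limma adjusted p of Cldn18 ranged from 0.184 to 1. The median over the tested members stayed positive, between 0.13 and 0.43. The number of members with knockout above wild type on every array was 1 with quantile normalization, 0 with cyclic loess and 1 with normexp, and 4 to 6 on leaving out single arrays. The share over all probes moved too, from 6.17% as deposited to 3.01%, 3.14% and 3.01% under these normalizations and to between 7.71% and 24.5% on leaving out single arrays, so these counts are not comparable with each other. Over all probes, 0 passed with the stricter filter (138 at an unadjusted p under 0.05), without both arrays with squamous transcripts (519) and without both with pancreatic transcripts (242), and 0 to 3 on leaving out single arrays. With the replicate number as a block 0 passed as well (753), and 2 members had an unadjusted limma p under 0.05. With title numbers 1 to 3 and 4 to 6 as a block 3 probes passed, but no member. There 2 members had an unadjusted limma p under 0.05, against 2717 of all 22640 probes. Deviations of same-numbered arrays correlated at 0.0445, -0.299 and 0.527, and not every array correlated best with its own number. So few correlations, on arrays that differ in tissue mix, cannot settle whether the numbers pair the samples.

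Directions turned for dim or variable genes. On leaving out single arrays, Cldn2 ranged from -0.17 (without wild type replicate 3) to 0.86, Cldn3 from -0.63 to 0.035 (without wild type replicate 3), Cldn7 from -0.14 to 0.12 (without knockout replicate 1), the median of the other claudins from -0.25 (without knockout replicate 1) to 0.17 and that of the desmosome genes from -0.0032 (without wild type replicate 3) to 0.31. Cldn2 was also negative without knockout replicate 2 (-0.08) and with array weights (-0.12). Cldn3 was 0.10 without both arrays with pancreatic transcripts. Cldn7 was 0.045 with array weights and 0.13 without both arrays with squamous transcripts. The median of the other claudins was -0.015 with quantile normalization, -0.016 with normexp, -0.0010 with no filter, -0.17 with array weights and -0.11 without both arrays with squamous transcripts. That of the desmosome genes was -0.053 with array weights. The cause of these turns was not tested. Background was not subtracted, which compresses any fold of dim probes such as Cldn3, Cldn4 and Cldn7. No genotype difference was established for these 3 genes.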
